A study of Mus musculus with 10 samples.

Results

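The genes described here are 9 interferon-inducible GTPases of the mouse, 5 immunity-related GTPases (IRG: Ifi47, Igtp, Irgm1, Irgm2 and Iigp1) and 4 guanylate-binding proteins (GBP: Gbp2, Gbp3, Gbp4 and Gbp7). They were chosen by name, with earlier results of these data known, and all 9 were found, each once, among the 54532 genes of the count table. Both families are large GTPases whose genes are switched on mainly by interferon gamma, the cytokine of type 1 T cells and natural killer cells. Interferon gamma binds the receptor Ifngr1/Ifngr2, the kinases Jak1 and Jak2 pass the signal on to the nucleus, and induced factors such as Irf1 take part in activating the promoters. IRG and GBP proteins gather on the membranes of vacuoles that hold intracellular parasites or bacteria and help to disrupt them. Igtp, Irgm1 and Irgm2 belong to the regulatory IRG class, which sits on the membranes of the cell itself and holds the effector IRG proteins, such as Iigp1, in their inactive form. In T cells they are known as interferon response genes, and Irgm1 is known to be needed for the survival of activated CD4 T cells.

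The libraries were Smart-seq2 RNA sequencing libraries, a full-length cDNA method for small amounts of RNA, made from regulatory T cells (Tregs, CD4 T cells that express Foxp3 and restrain immune responses). The Tumor group (n = 5) held Tregs from colon tumours of Apc Min/+ Foxp3 DTR mice, and the WT group (n = 5) held colon Tregs of Foxp3 DTR mice labelled WT, so both groups carried the Foxp3 DTR allele. Apc Min/+ mice carry a truncated allele of the Wnt pathway inhibitor Apc and form intestinal tumours, and the DTR allele places a diphtheria toxin receptor under the Foxp3 gene. All mice were C57BL/6 males aged 16 weeks, sorting was for CD45, CD3, CD4, CD25 and GFP, and the labels name no treatment. Tissue (tumour or colon) and Apc genotype changed together, so their parts cannot be told apart. Whether the 5 samples of each group are separate animals is not said in the labels. The p-values therefore measure only the spread between these samples, which may be technical.

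Total counts lay between 3054435 and 7747699 in the Tumor libraries and between 1676229 and 8412887 in WT. The geometric mean of 14 pan-T genes (Cd3e, Lck, Zap70 and others), in CPM (counts per fixed unit of sequencing depth, here set by the library total), was 279 to 422 in Tumor and 11.2 to 101.5 in WT. The 5 Treg genes of the marker list summed to 2064 to 4437 CPM in Tumor and 70.5 to 840.4 in WT. Reads of the labelled cell type's markers were thus found in all libraries, and their sum was far lower in WT. The 16 epithelial genes summed to 27420 and 36020 CPM in WT replicates 1 and 2. In the other WT libraries they came to at most 285.6 CPM, and in Tumor to 49.8 to 5769 CPM. Over 1437 genes of olfactory or vomeronasal receptors, which serve the sense of smell, reads came to 5.31 and 4.42 CPM per kilobase in WT replicates 3 and 5 and to 0.840 to 2.33 in the other 8 libraries. In reads per kilobase, that rate was 9.74, 8.82, 8.89, 6.28 and 7.67 in WT replicates 1 to 5. Foxp3 (3.99 kilobases) had 40, 28, 14, 109 and 52 reads there, no clear excess over that rate in replicates 1 to 3. The other Treg genes of that list lay above the rate in replicates 2 to 4. Ctla4 (2.33 kilobases) had 47, 698, 354, 758 and 13 reads in WT replicates 1 to 5, and Tnfrsf18 (1.52) had 39, 387, 207, 312 and 13. Il2ra (5.71) had 42, 224, 155, 463 and 36, and Ikzf2 (11.6) had 235, 657, 218, 627 and 228. In WT replicate 5, Il2ra, Ctla4 and Tnfrsf18 did not clearly exceed the rate, while Ikzf2 lay above it.

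The promoters of several members carry the binding motifs of the factors that answer interferon. The 2 motifs searched, on both strands, were the core of the interferon-stimulated response element (ISRE), which is GAAA, 2 bases of any kind and GAAA again, and the interferon gamma activated site (GAS), TTCNNNGAA. The windows ran from 250 bases before to 50 bases after each RefSeq transcript start (build GRCm38.p6, which is mm10), and 7 of the 9 members had one, Gbp3 2. The stretches below are shown because they hold every match in these windows and show how the matches are spaced. Each is printed on the strand of its gene, 5′ to 3′, from 110 bases before the start to the end of the last match, with ISRE cores and GAS sites in capitals.
Igtp, chr11:58199446-58199531, plus strand: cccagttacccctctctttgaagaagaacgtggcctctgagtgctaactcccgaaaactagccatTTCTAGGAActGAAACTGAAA
Irgm2, chr11:58214867-58214922, plus strand: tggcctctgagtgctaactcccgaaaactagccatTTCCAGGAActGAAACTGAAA
Irgm1, chr11:48871435-48871530, minus strand: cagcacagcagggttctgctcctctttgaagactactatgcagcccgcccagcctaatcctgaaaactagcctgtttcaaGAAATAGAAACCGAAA
Gbp7, chr3:142530226-142530292, plus strand: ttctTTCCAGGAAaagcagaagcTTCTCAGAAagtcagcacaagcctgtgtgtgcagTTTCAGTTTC
Gbp2, chr3:142620553-142620613, plus strand: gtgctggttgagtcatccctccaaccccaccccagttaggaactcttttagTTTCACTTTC
Gbp3, chr3:142559934-142560014, plus strand: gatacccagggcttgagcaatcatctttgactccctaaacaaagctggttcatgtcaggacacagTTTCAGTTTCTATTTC

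An ISRE core was found at 6 of the 7 members with a window (Igtp, Irgm1, Irgm2, Gbp2, Gbp3 and Gbp7) and a GAS site at 3 (Igtp, Irgm2 and Gbp7). Among all 32851 promoter windows of this length, 3.44% held an ISRE core, 8.30% a GAS site and 0.454% both. Igtp and Irgm2 had both motifs with their first bases 11 apart, and the last 56 printed bases of these genes were identical at 55 positions. The 1 difference was T39C, counted from 1 at the first of the 56 bases with the Igtp base first, and it lies in the unspecified middle of the GAS site. The ISRE cores of Irgm1 and Gbp3 came as overlapping pairs, the second starting 6 bases after the first. The Ifi47 window, placed at the start of the annotated gene, held neither motif, nor did the second window of Gbp3. The Irgm2 window was placed at 58214977, away from the annotated start of that gene at 58199618. For the Irgm2 window and the second Gbp3 window, the bases soon after the start were not found unbroken in a GENCODE transcript. A match is a description of the letters only, and no binding was measured. Gbp4 and Iigp1 were not matched.

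**Figure D1:**
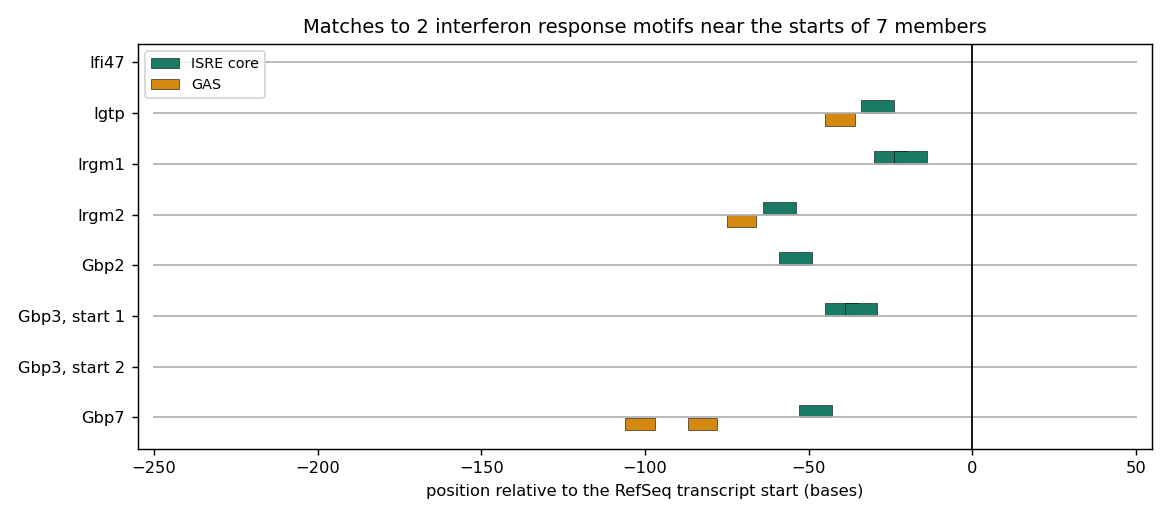
Matches to the ISRE core (green) and the GAS site (orange) along the promoter windows of 7 members, with distance from the RefSeq transcript start in bases on the horizontal axis and 1 line per window. All matches lie before the start, within 106 bases of it, and Igtp and Irgm2 show the same adjacent pair.

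Tumor libraries held more reads of the GTPase genes than WT libraries did, and the size of the difference varied widely among the 9. Of the 9 members, 4 rose on the common scaling (TMM, the trimmed mean of M values, which assumes that most genes do not change): Ifi47, Iigp1, Igtp and Irgm2, by 2.52 to 4.27 on the log2 scale. No member fell on this scaling, and the other 5 did not pass, with positive values from 0.55 to 2.55. The 4 calls are 44.4% of the members, where 1.59% of all 21414 genes tested were called and 1.37% were called higher in Tumor. Because the members were chosen with earlier results of these data known, the gap between these shares is a description and no independent support. A call is a Benjamini-Hochberg adjusted p below 0.05 over all genes tested in edgeR's quasi-likelihood test. At an unadjusted p below 0.05, 8 of the 9 were higher in Tumor, where 7.75% of all genes were. The median log2 fold change was 2.52 over the members and -0.20 over all genes tested. In these bulk libraries, fewer cells of a type and less RNA per cell cannot be told apart, and the 14 pan-T genes had a median log2 fold change of 2.86, near that of the members. When the libraries were scaled by those 14 genes instead, no member was called higher, none had a positive value with an unadjusted p below 0.05, and 3 were called lower (Irgm1, Gbp3 and Gbp4), where 91.8% of all genes were called lower and 0.0841% higher. Without WT replicates 1 and 2, rich in epithelial RNA, 4 members were called higher, as were 6.40% of all genes. Without WT replicates 3, 4 and 5, the libraries with the fewest counts, 7 members were called higher, as were 2.32% of all genes.

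**Figure D2:**
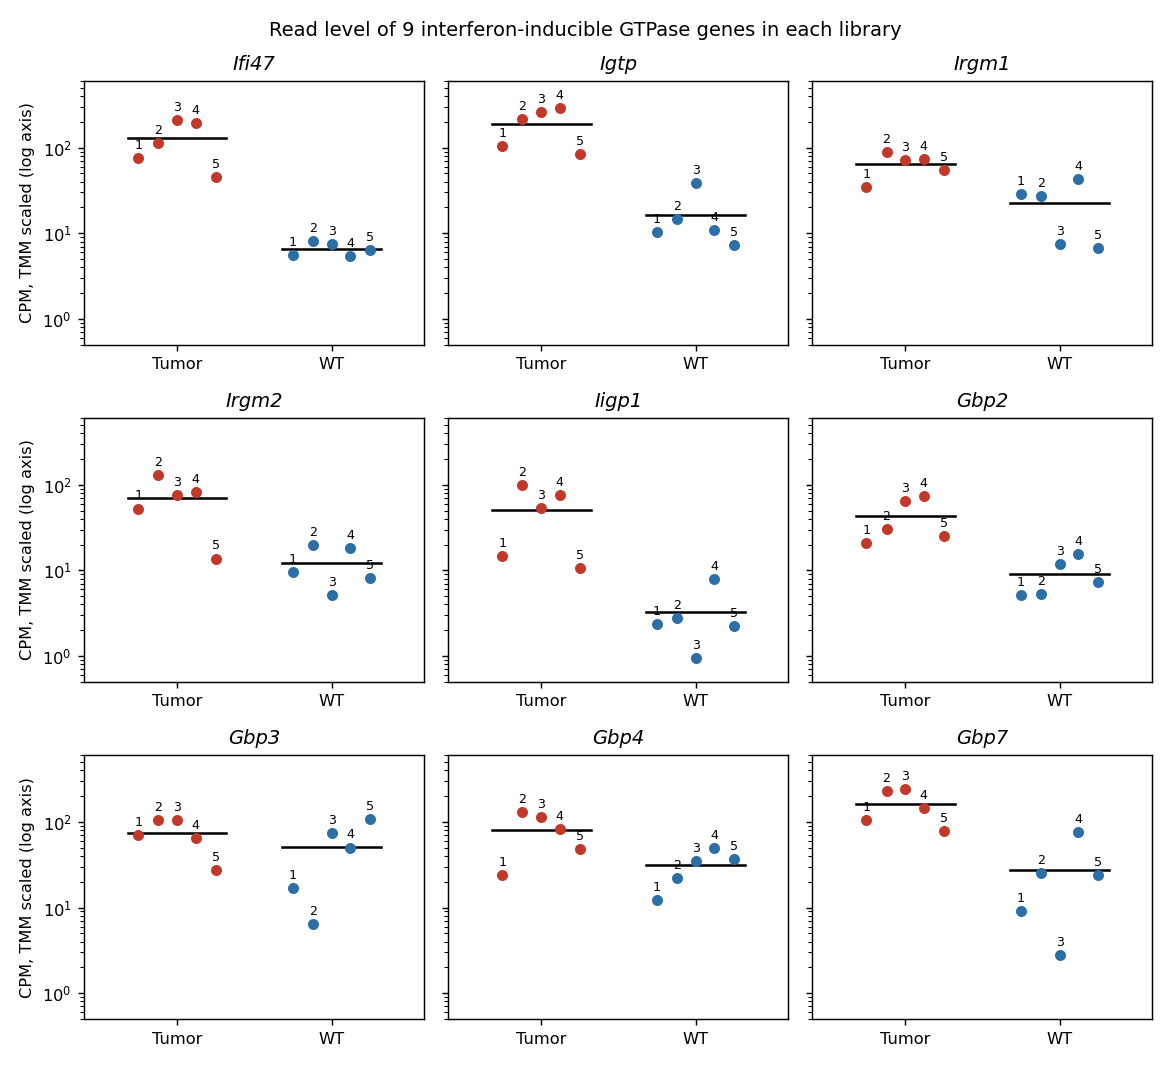
TMM-scaled CPM of each member (vertical log axis) in the 5 Tumor and 5 WT libraries, with points labelled by replicate number and a bar at the group mean. The groups do not overlap for Ifi47, Igtp, Iigp1, Gbp2 and Gbp7, and for Gbp3 the WT libraries span the whole range of the Tumor libraries.

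Levels below are TMM-scaled CPM, and folds are log2 values of Tumor over WT. Among the IRG genes, Ifi47 (also known as IRG-47, ENSMUSG00000078920, chromosome 11, 49076587 to 49096974, plus strand) showed the widest difference of the 9. Its level was 76.4, 114, 212, 196 and 45.2 CPM in Tumor replicates 1 to 5 and 5.62, 8.15, 7.51, 5.46 and 6.35 CPM in WT replicates 1 to 5. The groups were far apart, and the WT values stayed within a narrow band while the Tumor values spread 4.69-fold. Its log2 fold change was 4.27 ± 0.58 (SE, edgeR adjusted p = 0.00341), and it stayed called in all 10 fits that left out 1 library (4.06 to 4.53, adjusted p 0.00299 to 0.0182). After pan-T scaling it was 0.66 ± 0.86 (adjusted p = 0.453). Of its exon bases 8.77% also belong to exons of Olfr56 or of the antisense gene model Gm12188, whose reads cannot be told apart there if strand was not counted.

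Igtp (Irgm3, ENSMUSG00000078853, chromosome 11, 58199556 to 58207591, plus strand), a regulatory IRG, was the most abundant member per length in Tumor. It stood at 103, 219, 259.9, 288 and 84.7 CPM in Tumor replicates 1 to 5 and at 10.3, 14.6, 39.0, 10.9 and 7.26 CPM in WT replicates 1 to 5. No WT library reached the Tumor range, and WT replicate 3 stood well above the other WT libraries. The log2 fold change was 3.54 ± 0.65 (adjusted p = 0.0106), called in all 10 fits that left out 1 library (3.37 to 4.16, adjusted p 0.00652 to 0.0481), and it was 0.21 ± 0.76 after pan-T scaling (adjusted p = 0.785).

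Irgm2 (ENSMUSG00000069874, chromosome 11, 58199618 to 58222782, plus strand), a second regulatory IRG, has an annotated start close to that of Igtp and shares 162 exon bases with it, 8.01% of Igtp's and 4.39% of its own. Its level was 52.8, 129, 76.3, 82.4 and 13.8 CPM in Tumor replicates 1 to 5 and 9.59, 20.0, 5.16, 18.2 and 8.16 CPM in WT replicates 1 to 5. Tumor replicate 5 lay inside the WT range, and the other 4 Tumor libraries lay above it. The log2 fold change of 2.52 ± 0.61 passed narrowly (adjusted p = 0.0413) and was called in 3 of the 10 fits that left out 1 library: those without Tumor replicate 5, WT replicate 2 or WT replicate 4. In the other 7 its adjusted p was 0.0688 to 0.148, and after pan-T scaling its log2 fold change was -0.98 ± 0.88 (adjusted p = 0.279). Irgm2 was also not called in edgeR with RLE scaling (adjusted p = 0.0592), upper-quartile scaling (0.0604) or a filter of 10 CPM (0.0506), nor with voom (0.111).

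Irgm1 (LRG-47, ENSMUSG00000046879, chromosome 11, 48861968 to 48871683, minus strand), the third regulatory IRG, differed least among the IRG members. It stood at 34.3, 88.7, 72.2, 73.7 and 54.1 CPM in Tumor replicates 1 to 5 and at 29.0, 27.4, 7.51, 42.9 and 6.80 CPM in WT replicates 1 to 5. Tumor replicate 1 and WT replicate 4 overlapped, and WT replicates 3 and 5 were the lowest of all. Its log2 fold change of 1.5 ± 0.57 did not pass (adjusted p = 0.206, and 0.124 to 0.363 with 1 library left out). After pan-T scaling it was lower in Tumor, at -2.01 ± 0.83 (adjusted p = 0.0248).

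Iigp1 (Irga6, ENSMUSG00000054072, chromosome 18, 60376029 to 60392627), an effector IRG that is recruited to parasite vacuoles, was the least abundant member in WT. Its level was 14.6, 100.3, 53.9, 76.5 and 10.6 CPM in Tumor replicates 1 to 5 and 2.34, 2.76, 0.939, 8.01 and 2.27 CPM in WT replicates 1 to 5, which rested on 2 to 22 reads per WT library. The groups did not overlap, with Tumor replicates 1 and 5 close above WT replicate 4. It rose by 3.95 ± 0.77 (adjusted p = 0.0153). The call held in 6 of the 10 fits that left out 1 library and was lost without Tumor replicate 2, 3 or 4 or WT replicate 1 (adjusted p up to 0.0681), and the value after pan-T scaling was 0.64 ± 1.05 (adjusted p = 0.552). With voom the call was lost as well (adjusted p = 0.0517).

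The GBP members gave 0 calls on TMM in edgeR, where 1.59% of all genes were called. All 4 had positive values, and 3 of them (Gbp2, Gbp4 and Gbp7) had an unadjusted p below 0.05, where 7.75% of all genes were higher at that level. DESeq2 called 2 (Gbp2 and Gbp7), beside 3.18% of all genes called higher. Voom called Gbp7 alone of them (adjusted p = 0.0158), beside 2.21% of all genes called higher. Gbp7 (ENSMUSG00000040253, chromosome 3, 142530342 to 142550149, plus strand), a GBP that promotes oxidative and autophagic killing in macrophages, stood at 105.7, 232, 245, 144 and 78.9 CPM in Tumor replicates 1 to 5. Its WT values were 9.13, 25.2, 2.82, 76.1 and 24.0 CPM. The groups just failed to meet, since WT replicate 4 reached close to Tumor replicate 5, and WT varied 27.0-fold. The log2 fold change was 2.55 ± 0.72 (adjusted p = 0.0839), and without WT replicate 4 it became 3.41 and was called (adjusted p = 0.0229). Of its exon bases 11.3% also belong to exons of the gene model Gm43802 on the same strand.

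Gbp2 (ENSMUSG00000028270, chromosome 3, 142620602 to 142638008, plus strand), which carries a lipid anchor and takes part in opening pathogen vacuoles, was at 20.8, 30.3, 64.9, 74.0 and 25.5 CPM in Tumor replicates 1 to 5. In WT replicates 1 to 5 it was at 5.15, 5.25, 11.7, 15.6 and 7.26 CPM, all below the Tumor libraries. Its log2 fold change of 2.27 ± 0.60 did not pass (adjusted p = 0.0645, and 0.0552 to 0.215 with 1 library left out). After pan-T scaling Gbp7 and Gbp2 were at -0.59 ± 0.77 and -1.01 ± 0.93 (adjusted p = 0.452 and 0.295).

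Gbp4 (ENSMUSG00000079363, chromosome 5, 105115767 to 105139586, minus strand) lies in the second GBP gene cluster, beside the close relatives Gbp6, Gbp8 and Gbp9. Its level was 23.9, 129, 114, 83.6 and 48.4 CPM in Tumor replicates 1 to 5 and 12.2, 22.2, 34.7, 49.5 and 37.2 CPM in WT replicates 1 to 5. The ranges overlapped, with Tumor replicate 1 below 3 WT libraries. The log2 fold change was 1.36 ± 0.55 (adjusted p = 0.236) on TMM and -1.98 ± 0.76 after pan-T scaling (adjusted p = 0.0175, lower in Tumor).

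Gbp3 (ENSMUSG00000028268, chromosome 3, 142560026 to 142573209, plus strand) went its own way among the 9. It stood at 70.5, 104, 105.0, 65.3 and 27.3 CPM in Tumor replicates 1 to 5 and at 17.1, 6.50, 73.7, 50.2 and 108 CPM in WT replicates 1 to 5. The highest library of all was WT replicate 5 and the lowest were WT replicates 1 and 2, the libraries with abundant epithelial RNA. The log2 fold change was 0.55 ± 0.64 (adjusted p = 0.691) over all libraries, 0.0027 ± 0.53 without WT replicates 1 and 2 (adjusted p = 0.998) and 2.72 ± 0.63 without WT replicates 3, 4 and 5 (adjusted p = 0.00678). After pan-T scaling it was -3.00 ± 0.85 (adjusted p = 0.00284, lower in Tumor).

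**Figure D3:**
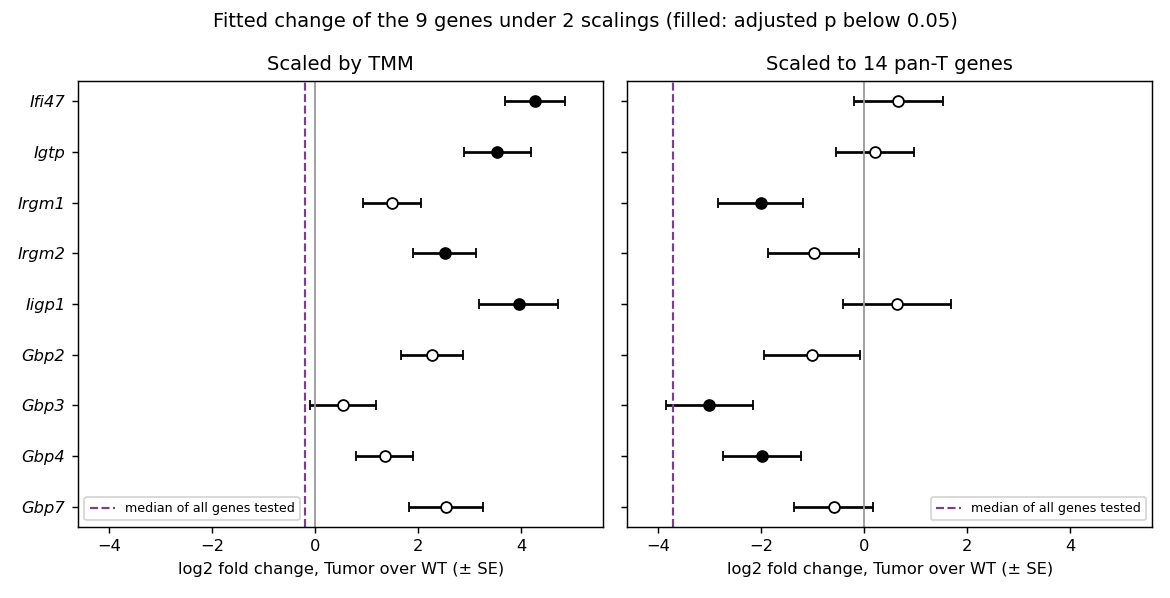
Log2 fold change of Tumor over WT with its SE for each member, scaled by TMM (left) and to 14 pan-T genes (right), with filled points called at an adjusted p below 0.05 and a dashed line at the median of all genes tested. All members lie above the dashed line under both scalings, a place that a shift of all genes leaves nearly unchanged. Ifi47, Igtp and Iigp1 are the members above 0 after pan-T scaling.

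The pan-T scaling moved the median log2 fold change of all genes tested from -0.20 to -3.71. A change of scaling shifts all genes by nearly the same amount, so a gene's distance from that median was nearly fixed in advance. That distance therefore says nothing about whether a rise outlasts the pan-T scaling. Ifi47 was 4.47 above the median on TMM and 4.37 above it with pan-T scaling, and Iigp1 4.15 and 4.35. Igtp was 3.74 and 3.92 above it, and Gbp3 0.75 and 0.70. A ranking within each library needs no scaling between libraries, but it still depends on how much T cell RNA the library holds. It therefore does not replace the pan-T scaling. By CPM per kilobase among 16773 protein coding genes tested, Ifi47 ranked at the 87.6th to 96.7th percentile in Tumor and at the 28.8th to 48.0th in WT. Igtp ranked at the 94.4th to 98.2nd percentile in Tumor and at the 60.3rd to 94.2nd in WT, the highest WT value being that of replicate 3. Iigp1 ranked at the 45.7th to 91.6th percentile in Tumor and at the 3.16th to 38.8th in WT. Gbp2 (75.0th to 91.45th in Tumor, 24.8th to 75.1st in WT) and Gbp7 (84.0th to 93.4th, 14.7th to 92.5th) overlapped by rank. Irgm1, Irgm2 and Gbp4 overlapped as well. Gbp3 ranked at the 73.3rd to 91.5th percentile in Tumor, within its WT range of the 34.4th to the 99.1st.

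The make-up of the family differed between libraries. Per kilobase, the order of mean levels in Tumor was Igtp (94.4 ± 45.5 CPM per kilobase, SD, n = 5), Ifi47 (52.1 ± 29.6), Gbp7 (28.7 ± 13.2), Gbp3 (22.8 ± 9.87), Irgm2 (19.2 ± 11.4), Gbp2 (17.1 ± 9.75), Iigp1 (16.4 ± 12.5), Irgm1 (11.1 ± 3.60) and Gbp4 (10.7 ± 5.87). No neighbours in that order were further apart than the SD of the higher one. In WT the order began with Gbp3 (15.7 ± 12.7) and Igtp (8.12 ± 6.37) and ended with Ifi47 (2.68 ± 0.48) and Iigp1 (1.05 ± 0.88). Igtp made up 31.9 to 38.7% of the summed per-length level of the 9 genes in Tumor and 6.47 to 33.4% in WT. The share of Ifi47 was 13.6 to 22.5% in Tumor and 3.44 to 9.96% in WT, and that of Gbp4 was 2.01 to 5.59% in Tumor and 6.19 to 10.3% in WT, with no overlap for either gene. Gbp3 alone supplied 39.1, 23.9 and 59.6% in WT replicates 3, 4 and 5, 19.9% in WT replicate 1 and 6.01% in WT replicate 2, where the Tumor range was 5.44 to 13.6%.

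Some WT levels lay near the rate of reads found over the receptor genes. Multiplying the receptor gene rate of each library by the length of a gene gives the reads expected from such background, 9.61 to 24.1 for Ifi47. Ifi47 had 0.727 to 2.71 times the expected reads in WT and 9.05 to 81.2 times in Tumor. Iigp1 had 0.0721 to 1.12 times in WT and 1.67 to 19.9 times in Tumor, so its WT reads did not exceed this rate by more than 1.12 times in any library. Igtp stood at 1.03 to 5.95 times in WT and 20.7 to 122 times in Tumor. Gbp3 was above the rate in every library, at 1.63 to 9.50 times in WT and 4.14 to 30.5 times in Tumor. With the expected reads subtracted, edgeR called 0 of the 9 members and 0 of all 11696 genes tested (4 and 730 at an unadjusted p below 0.05), while the log2 fold changes of Ifi47 and Iigp1 became 6.49 ± 1.47 and 7.18 ± 1.89 (adjusted p = 0.171 and 0.207).

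**Figure D4:**
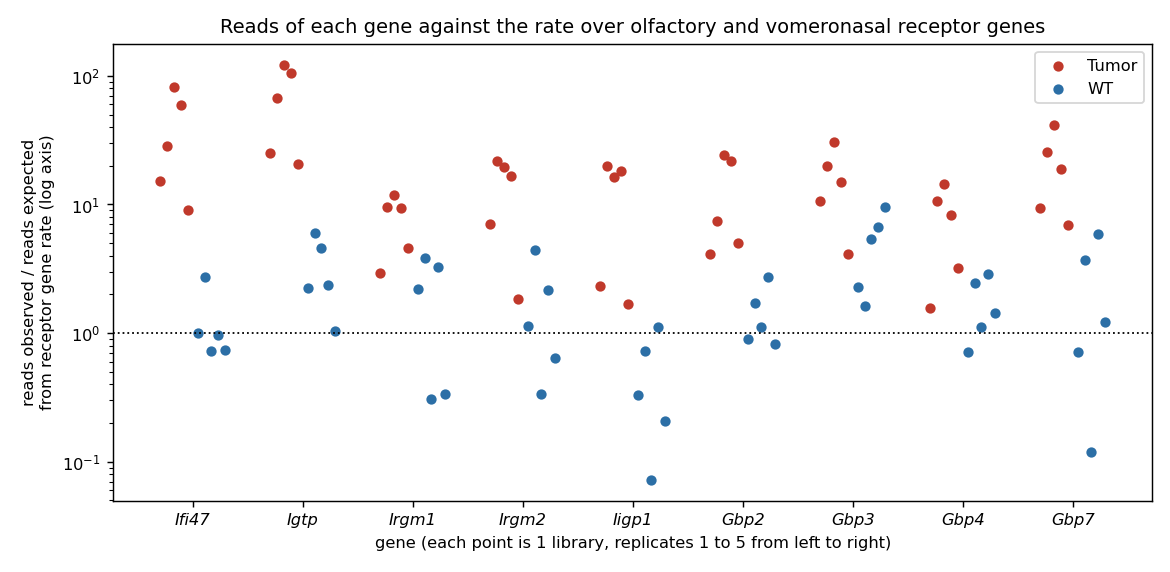
Reads of each member divided by the reads expected from the rate over 1437 olfactory and vomeronasal receptor genes (vertical log axis), with 1 point per library, Tumor in red and WT in blue, and a dotted line at a ratio of 1. The WT points of Ifi47 lie between 0.727 and 2.71 and its Tumor points between 9.05 and 81.2.

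In TMM-scaled CPM, 5 of the 9 members had no overlap between groups, namely Ifi47, Igtp, Iigp1, Gbp2 and Gbp7. Of all genes tested, 4.38% had that pattern with Tumor higher. By rank within the library, Gbp2 and Gbp7 did overlap. Within Tumor, replicate 5 was the lowest library for Ifi47, Igtp, Irgm2, Iigp1, Gbp3 and Gbp7, and replicates 2, 3 and 4 were the highest for most members. Macrophages and monocytes also use these genes. In CPM of the library total, 12 of their markers summed to 1337, 4966, 1462, 1997 and 6017 in Tumor replicates 1 to 5 against 56.1 to 173 CPM in WT, where C1qa, Apoe and Itgam were at 0 in replicate 3. No marker of that list was at 0 in a Tumor library, and 5 of the 12 lay above all WT libraries in every Tumor library (6 with TMM scaling). Of the 2 Tumor libraries with the highest sums, replicate 5 was the lowest Tumor library for 6 of the 9 members, and replicate 2 was the highest for 4 (Irgm1, Irgm2, Iigp1 and Gbp4). The part of macrophage RNA in the result was not tested. On the same scale of library totals, dendritic cell markers (7 genes) summed to 118 to 282 CPM in Tumor and 36.7 to 355 in WT, with overlapping ranges. The sums of neutrophil (6 genes, 51.8 to 1744 CPM in Tumor and 5.94 to 136.5 in WT), B and plasma cell (8 genes, 76.3 to 445 and 100.2 to 3651), natural killer and innate lymphoid (4 genes, 18.3 to 104 and 26.3 to 197) and endothelial and stromal markers (8 genes, 82.2 to 228 and 97.5 to 281) overlapped between the groups as well.

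The other genes of the 2 families were also examined. Of 17 other IRG and GBP genes 15 were tested, 1 rose (6.67%, beside the 1.37% of all genes) and 13 had positive values, with a median log2 fold change of 1.43. The call was Gbp8, a neighbour of Gbp4 whose exons overlap it, with 39.6, 22.8, 72.9, 111 and 90.2 CPM in Tumor replicates 1 to 5 and 10.1, 12.2, 13.1, 17.8 and 10.4 CPM in WT. No WT library reached the Tumor range. Gbp8 rose by 2.40 ± 0.54 (adjusted p = 0.0297), was called in 5 of the 10 fits leaving out 1 library and stood at -0.91 ± 0.86 after pan-T scaling. Tgtp2 (2.88 ± 0.89, adjusted p = 0.119), Gm12250, which encodes Irgb10 (2.80 ± 0.98, 0.169), Gbp6 (2.69 ± 1.04, 0.212) and Tgtp1 (2.26 ± 1.04, 0.292) did not pass in edgeR. DESeq2 called 3 of the 15 higher (Gbp8, Tgtp2 with an adjusted p of 0.0158 and Gm12250 with 0.0225), beside 3.18% of all genes. Voom called 0 (5 at an unadjusted p below 0.05), where it called 2.21% of all genes higher. Tgtp1 and Tgtp2 are near-identical copies, so the split of reads between them is uncertain. The deposited gene type of Gm12250 is processed pseudogene. Of the 17 genes 8 had a promoter window, and 4 of these held both motifs: Tgtp1, Tgtp2, Gm12250 and Gbp5. The windows of Tgtp1 (48992246), Gm12250 (58183843) and Gbp5 (142496934) were placed away from the annotated starts of the counted genes. Those starts are 48994172 (minus strand), 58187739 and 142493978. Gbp5 hardly differed between the groups (0.74 ± 0.73, edgeR adjusted p = 0.629). In Tgtp1 and Tgtp2 the first bases of the GAS site and the ISRE core were again 11 apart. A link between motifs and fold changes was not tested.

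The remaining family members had values from -0.89 to 1.55 and did not pass. They were F830016B08Rik (1.47 ± 0.86), 9930111J21Rik1 (1.43 ± 1.03), 9930111J21Rik2 (1.16 ± 0.61), Gm4951 (0.30 ± 0.92) and the large GTPase gene Gvin1 (1.55 ± 0.99). The GBP genes among them were Gbp9 (1.15 ± 0.74), Gbp2b (1.05 ± 0.84), Gbp5, which promotes inflammasome assembly (0.74 ± 0.73), and Gbp11 (-0.21 ± 0.94). Irgc1, an IRG of the testis that is not known to answer interferon, was at -0.89 ± 0.92. Gm5431 and Gbp10 were too low to be tested, at 0 to 24 reads per library.

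Upstream of these genes, the signalling chain of interferon gamma showed 1 rise (Socs1) among 7 genes tested (14.3%, beside the 1.37% of all genes). The median log2 fold change was 1.13. DESeq2 called 2 higher, beside 3.18% of all genes. Ifng itself, the ligand, was too low to be tested, with 403 reads in Tumor replicate 4, 117 in WT replicate 3 and 0 to 16 in the other 8 libraries. Tumor replicate 4 was the highest of all 10 libraries for Igtp (288 CPM) and Gbp2 (74.0 CPM), and not for the other members. WT replicate 3 was the WT library with the highest Igtp, and Irgm2, Iigp1 and Gbp7 were at their lowest there. A link between Ifng reads and the levels of the members was not tested.

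Socs1, an inhibitor that interferon gamma induces and that shuts off the Jak kinases, stood at 24.7, 56.4, 82.3, 59.8 and 24.5 CPM in Tumor replicates 1 to 5 and 4.45, 5.80, 1.41, 5.46 and 4.54 CPM in WT. It rose by 3.49 ± 0.62 (adjusted p = 0.00842) and was called in 9 of the 10 fits, its adjusted p reaching 0.0541. The groups did not overlap. After pan-T scaling Socs1 was at -0.18 ± 0.998. The receptor chain gene Ifngr1 (2.54 ± 0.77, adjusted p = 0.114), Jak1 (1.55 ± 0.61, 0.219), Irf1 (1.13 ± 0.65, 0.398), Jak2 (0.84 ± 0.52, 0.430) and the phosphatase gene Ptpn2 (0.73 ± 0.62, 0.569) did not pass. The other receptor chain gene, Ifngr2, was at -0.080 ± 0.69, and without WT replicates 1 and 2 at 1.71.

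Other targets of interferon gamma rose in 6 of 20 cases (30.0%, beside the 1.37% of all genes), with a median log2 fold change of 1.53. They were Serpina3g, a serine protease inhibitor (4.26 ± 0.71, adjusted p = 0.00612), Tap2, a peptide transporter subunit (2.50 ± 0.53, 0.0218), Psmb8, an immunoproteasome subunit (2.94 ± 0.64, 0.0274), and Ly6a, Tap1 and Psmb9. With 1 library left out, Serpina3g stayed called in 10 of 10 fits, Tap2 in 6 and Psmb8 in 4 (adjusted p up to 0.0946 and 0.103). After pan-T scaling Psmb8 and Tap2 turned to -0.44 and -1.14, and Serpina3g was at 1.24 (adjusted p = 0.116). None of 20 genes typical of type I interferon was called on TMM in edgeR, where 1.59% of all genes were called, and their median was -0.36. At an unadjusted p below 0.05 there were 2, 1 in each direction. DESeq2 called 1 in each direction, where it called 3.18% of all genes higher and 4.53% lower. The 2 most abundant of them, Irf9 and Oas1a, were at 0.64 ± 0.47 and -0.70 ± 0.70. No test compared these lists with each other or with the members, and all were chosen with earlier results of these data known.

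**Figure D5:**
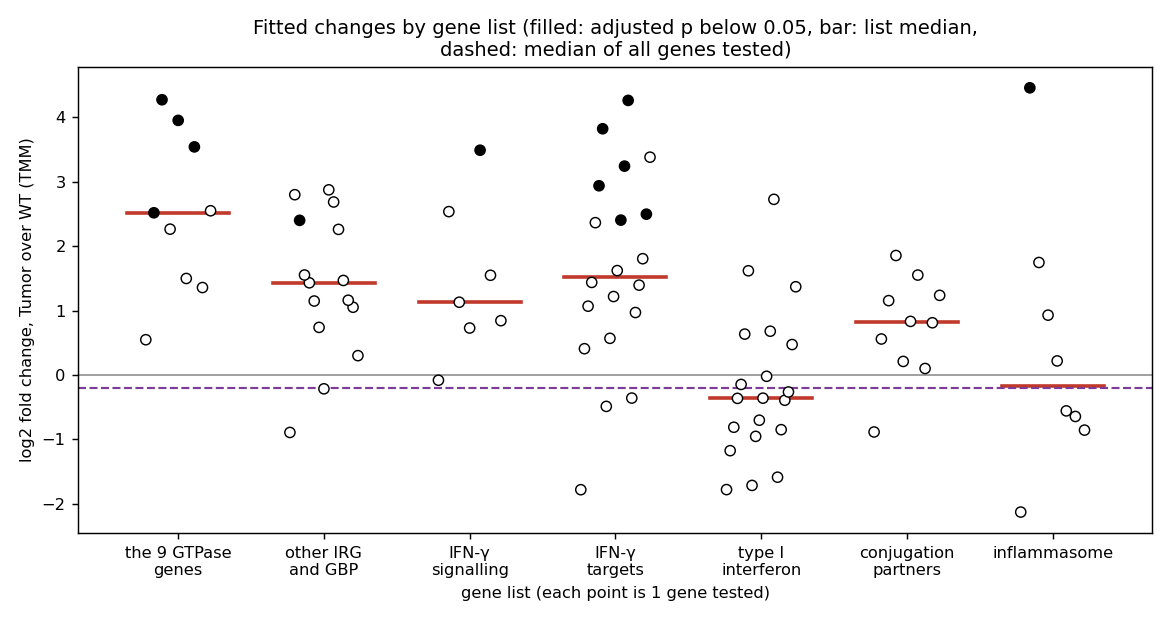
Log2 fold change of Tumor over WT (TMM) for each gene tested in 7 lists, filled where the adjusted p is below 0.05, with a red bar at each list's median and a dashed line at the median of all genes tested. The medians are 2.52 for the 9 members, 1.43 for other IRG and GBP genes, 1.13 for interferon gamma signalling, 1.53 for its targets and -0.36 for type I interferon genes.

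A further pair of lists describes partners of the GTPases. The ubiquitin-like conjugation proteins of the autophagy pathway direct IRG and GBP proteins to membranes. None of their 10 genes was called in edgeR, where 1.59% of all genes were called, and 3 had an unadjusted p below 0.05, all positive. DESeq2 called 1 higher, beside 3.18% of all genes. The median was 0.82, and the most abundant, Gabarap and Map1lc3b, were at 0.81 ± 0.85 and 1.24 ± 0.61. Over 8 inflammasome genes, whose products act when GBP proteins expose bacterial components, the median was -0.17 (0.46 with voom). Among them Il1b rose (4.46 ± 0.95, edgeR adjusted p = 0.0226), 12.5% of the list beside the 1.37% of all genes. Its call held in 5 of the 10 fits that left out 1 library (adjusted p up to 0.0729), and after pan-T scaling it was at 1.09 (adjusted p = 0.246). Il1b is a cytokine gene of myeloid cells, whose markers differed between the groups as given above.

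Among 11054 protein coding genes with at least 10 CPM on average in Tumor, those whose profile over the 10 libraries lay closest to the mean profile of the 9 members were Ikzf2, Prdm1, Fam169b, Tmem154 and Btg1. Likeness was measured as the root mean square difference of log2(CPM + 1) values, each centred on its own mean, and was 0.30 for Ikzf2, 0.36 for Prdm1, 0.37 for Fam169b and 0.38 for both Tmem154 and Btg1, against a median of 1.51 over those genes. Ikzf2 encodes the Treg factor Helios and Prdm1 the effector factor Blimp-1, and their log2 fold changes were 2.13 ± 0.67 (adjusted p = 0.127) and 2.92 ± 0.57 (0.0157). The members themselves ranged from 0.49 for Gbp2 and 0.57 for Irgm2 to 1.26 for Gbp3, the member furthest from that mean. Ranked together with those genes, Gbp2 came 26th, Ifi47 513th, Igtp 600th and Gbp3 3187th, although each member is part of the mean. Many other genes thus lay closer to the mean profile than the members did.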

How the data were processed

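RNA sequencing libraries of sorted colon Tregs (5 Tumor, 5 WT, grouped by title) were deposited by the authors as raw read counts per gene, whole numbers that are not normalized, with gene coordinates on mm10. HISAT2 2.0.5 and featureCounts 1.5.0-p3 are named per the submitters' processing notes. The annotation, whether strand was counted and how reads with several matching genes were handled are not given in the sources used here. The 10 single-library files held the same counts as the table used. Gene lengths were those deposited.

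Genes were filtered with filterByExpr (minimum count 10, minimum total 15; 21414 kept), scaled by TMM and tested with edgeR 4.0.16 in R 4.3.3 (robust quasi-likelihood F test, 2-sided, on group alone), with Benjamini-Hochberg adjustment over all genes. The SE is the log2 fold change divided by the square root of F. The biological coefficient of variation was 86.1%. The procedure was tested on simulated data. The smallest chi-square per degree of freedom over 45 library pairs was 25.7, so no pair was taken as repeat counts of the same library. All 10 were entered as samples, but this value cannot show that they are independent. Reads carry no molecular identifiers, so counting error understates the error of a library.

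The members and gene lists were chosen with earlier results of these data known. Named were all members, all tested genes of the family and signalling lists, up to 3 called genes of other lists (or the 2 most abundant), and the 5 genes with the nearest profile. Ly6a, Tap1 and Psmb9 were named after their values were seen. 1 gene of the signalling list is not reported here and is left out of its counts. Markers of other cell types are given as sums. Alternatives were RLE, upper-quartile and pan-T scaling, DESeq2 1.42.0, limma 3.58.1 voom, no filter on low counts, a minimum of 10 CPM in 5 libraries, background subtraction, a replicate block and libraries left out. Exon overlaps used GENCODE, promoters RefSeq.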

Additional observations from a re-analysis of the deposited data

Results flagged for a closer look

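In 18 groups of 5 libraries (9 members in Tumor and in WT), 2 held a library whose gap to its nearest neighbour was a large part of the group's range, above the critical value of 0.71 for 5 samples, which chance exceeds in about 1 of 20 groups. Igtp stood at 39.0 CPM in WT replicate 3, far above the other WT libraries, with a gap of 0.767 of the range. Iigp1 stood at 8.01 CPM in WT replicate 4, again above the others, with a gap of 0.742 of the range.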

How the results depend on the processing

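The calls depended on the setting more than the directions did. The count of members called higher, 4 in the main fit, was 0 with pan-T scaling and 0 with background subtracted, 7 without WT replicates 3, 4 and 5, 6 with DESeq2 or no filter, and 2 to 5 with 1 library left out. It was 3 with RLE scaling, upper-quartile scaling, voom or the filter of 10 CPM, and Irgm2 was not called in any of these. Of all genes, 340 were called (293 higher, 47 lower), against 19673 with pan-T scaling (18 and 19655), 1651 with DESeq2 (682 and 969), 820 without a filter (479 and 341), 0 with background subtracted, 65 to 417 with 1 library left out, 1993 without WT replicates 1 and 2 (1615 and 378) and 1325 without WT replicates 3, 4 and 5 (696 and 629). Samples of the same number did not deviate together (correlations of -0.138 to 0.040 across genes), and a replicate block gave 141 calls (138 and 3), 3 of them members, with Irgm2 no longer called (adjusted p = 0.0964). The cause of these moves was not tested. Of 189 alternative values of the members, 147 kept direction and side of the threshold, 25 lost the call, 10 gained it and 7 turned. With pan-T scaling the log2 fold changes of named genes turned to Socs1 -0.18, Psmb8 -0.44, Prdm1 -0.53, Gbp7 -0.59, Tgtp2 -0.63, Tmem154 -0.77, Gbp6 -0.83, Ifngr1 -0.87, Gbp8 -0.91, Gm12250 -0.92, Irgm2 -0.98, Gbp2 -1.01, Tap2 -1.14, Ikzf2 -1.14, Btg1 -1.21, Fam169b -1.23, Tgtp1 -1.38, Jak1 -1.65, Gbp4 -1.98, 9930111J21Rik1 -1.99, Irgm1 -2.01, 9930111J21Rik2 -2.05, F830016B08Rik -2.12, Gbp2b -2.18, Gvin1 -2.21, Gbp9 -2.25, Irf1 -2.33, Jak2 -2.45, Ptpn2 -2.46, Map1lc3b -2.60, Gbp5 -2.79, Irf9 -2.94, Gbp3 -3.00, Gabarap -3.13, Gm4951 -3.28. Elsewhere, weakly changed genes turned sign. Gm4951 turned to -0.048 without WT replicates 1 and 2, -0.090 with background subtracted, -0.13 with the filter of 10 CPM and -0.88 with voom. Ifngr2 turned to 1.71 without WT replicates 1 and 2, 0.45 with voom and 0.69 with the block. Gbp11 turned to 0.060 and Oas1a to 0.90 without WT replicates 1 and 2, Gabarap to -0.32 without WT replicates 3, 4 and 5, and Gbp3 to -0.45 with background subtracted. With 1 library left out, Gm4951 ran from -0.39 to 0.76, Gbp11 from -0.86 to 0.094 and Ifngr2 from -0.37 to 0.75. With library totals in place of TMM, 87 of 90 member levels moved by less than the SD of their group, and Ifi47 became 4.20, 9.55 and 8.06 CPM in WT replicates 1, 3 and 5. At these depths and this spread a gene that was not called can differ several fold.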
